A study of Mus musculus with 23 samples.

Results

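The data here are the epithelial mammary tumors with the higher and the lower Erbb2 transcript levels among 23 Brca1-deficient mouse tumors profiled by bulk RNA-seq. All levels are log2(FPKM + 1), where FPKM is the fragment count of a gene relative to its transcript length and to all mapped fragments. Tumors were chosen by 2 measured values: an Epcam level of 4 or more, which 19 of the 23 tumors had, and then the Erbb2 level. The Erbb2-higher set holds the 10 tumors at 4.6 or more and the Erbb2-lower set the 8 tumors with the lowest values, so 18 of 23 tumors entered the comparison. X154T, at 4.34 between the sets, was left out, and the tumors next to it were X2265T at 4.66 inside the higher set and X370T and X4351T at 4.16 inside the lower set. These sets were made from the readout and are not labelled groups. Erbb2 and Epcam are therefore described with no test, and a p-value of any other gene measures its association with the Erbb2 level over these tumors.

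The study collected the tumors to examine how heterogeneous mammary cancers become after loss of Brca1. Per its methods, tumors came from mice with MMTV-Cre and Brca1 fl/fl, or with Trp53 fl/+ in addition, on a mixed C57BL/6 and 129/Sv background; MMTV-Cre drives recombination in mammary epithelium but not exclusively there. The labels place all 23 tumors in 1 group and the strain as mixed, so the Trp53 genotype and the age behind each tumor were not used, and their part in the differences was not tested. Whether each tumor came from a mouse of its own is not stated: the 18 titles hold 14 distinct numbers, 4 of them in a pair of tumors, so p-values cover the variation among these tumors and no more.

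ErbB2 is a receptor tyrosine kinase of the epidermal growth factor receptor family. It binds no known ligand of its own and signals as the partner of the other family members, which bind epidermal growth factor-like ligands or neuregulins, through the Ras-MAPK, PI3K-Akt and STAT routes. In human breast cancer ERBB2 is known for being amplified along with neighbouring genes such as GRB7 and STARD3, and tumors of BRCA1 mutation carriers are mostly without it. DNA copy number was not analysed here.

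Erbb2 lies on the forward strand of mouse chromosome 11, 98412470 to 98437716 on GRCm38, and Stard3, which encodes a cholesterol-binding protein of late endosomes, lies upstream at 98358368 to 98381112. Their promoter windows from RefSeq (build GRCm38.p6, forward strand) are shown because both genes are compared across the same tumors in what follows. The letters in capitals mark the box CCAAT, searched on both strands, which 37.4% of the 32851 promoter windows of this length hold. The palindrome GCCNNNGGC, the textbook site of AP-2 factors, had 0 matches in either window and is found in 16.6% of all windows.
Erbb2, chr11:98412234-98412533: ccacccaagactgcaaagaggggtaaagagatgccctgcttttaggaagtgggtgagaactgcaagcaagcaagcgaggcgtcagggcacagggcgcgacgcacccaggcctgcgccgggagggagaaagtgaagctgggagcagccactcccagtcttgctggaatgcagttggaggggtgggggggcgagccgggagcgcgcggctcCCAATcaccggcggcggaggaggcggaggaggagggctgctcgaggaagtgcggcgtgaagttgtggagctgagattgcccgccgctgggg
Stard3, chr11:98358118-98358417: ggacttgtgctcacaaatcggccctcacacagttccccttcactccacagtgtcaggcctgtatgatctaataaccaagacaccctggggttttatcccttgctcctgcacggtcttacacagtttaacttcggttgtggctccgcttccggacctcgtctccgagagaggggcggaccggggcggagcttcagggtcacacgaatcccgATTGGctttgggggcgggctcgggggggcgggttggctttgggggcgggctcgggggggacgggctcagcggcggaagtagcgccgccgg
The GC content of the Erbb2 window was 66.0% and that of the Stard3 window 63.3%. The CCAAT box is a common promoter element and a match is a description of these letters only.

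Erbb2 transcript was present in every epithelial tumor. In the higher set it ran from 4.66 in X2265T over a median of 5.04 to 6.26 in X493T1, and in the lower set from 2.49 in X1463T2 over a median of 3.34 to 4.16 in X370T. The means were 5.10 ± 0.49 (SD, n = 10) and 3.43 ± 0.63 (SD, n = 8), a difference of 1.67. X493T1 stood apart from the next tumor, X731T at 5.42. The 4 tumors of low Epcam had Erbb2 levels between 2.93 and 3.36, inside the range of the lower set. One pair sharing a title number was divided between the sets, with X1463T1 at 4.69 and X1463T2 at 2.49.

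Both sets had epithelial transcripts at high levels. Epcam, the cell adhesion molecule used to choose them, ran from 6.18 to 9.62 in the higher and from 7.27 to 9.82 in the lower set. The luminal keratin Krt8 ran from 7.42 to 10.13 and from 7.94 to 10.87, and its partner Krt18 from 7.95 to 10.11 and from 8.31 to 10.62. E-cadherin (Cdh1), named after its values were seen, had medians of 6.35 and 6.06. X493T1, the tumor with the highest Erbb2, had the lowest Epcam, Krt8 and Krt18 of its set. None of these markers separated the sets.

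**Figure D1:**
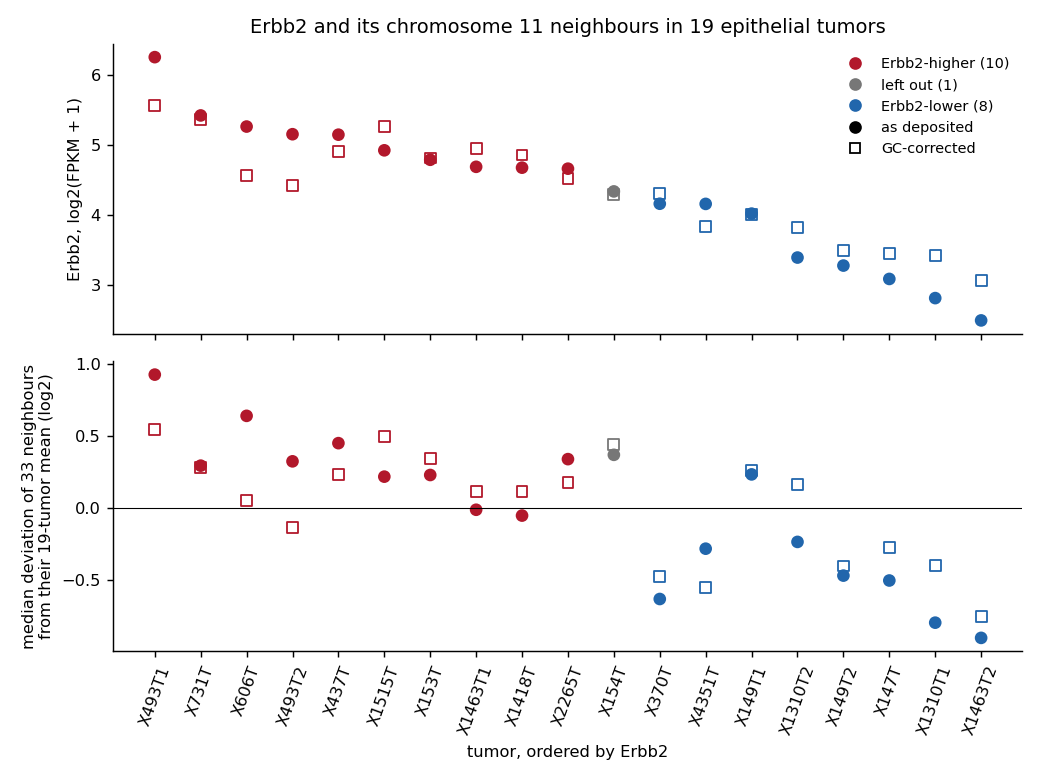
Erbb2 level (upper panel, log2(FPKM + 1)) and the median deviation of 33 tested chromosome 11 neighbours from their mean over 19 epithelial tumors (lower panel, log2) for each tumor, ordered by Erbb2. Circles are values as deposited and squares values after correction for transcript GC content; the highest deposited neighbour deviation is 0.93 in X493T1 and the lowest is -0.90 in X1463T2.

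No tested gene passed the adjusted threshold between the sets; Erbb2 and Epcam were not among the tested genes. In limma's moderated test, 0 of 12039 genes had a Benjamini-Hochberg adjusted p under 0.05 (0%), and the smallest adjusted p was 0.186. At an unadjusted p under 0.05, 1137 genes (9.44%) had the higher level in the Erbb2-higher set and 409 (3.4%) the lower level. The median difference over all these genes was 0.12 on the log2 scale, so single differences are to be read against that shift. With each tumor centred on its median the split was 691 higher and 897 lower, and with quantile normalization 687 and 766. Robust limma, the other tool setting run, also called 0 genes.

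The differences depended on the base composition of transcripts. Over 11830 genes, Spearman's rho between the GC percent of the longest annotated transcript and the difference between sets was 0.50, across genes, which are not independent replicates. The median difference was -0.36 in the lowest decile of GC and 0.41 in the highest. The Erbb2 transcript has 57.3% GC and its tested neighbours a median of 54.2%, against 50.1% over the tested genes. Each tumor was therefore also corrected for its own trend with GC, an alternative chosen after seeing the data. After it 516 genes (4.31%) were higher and 553 (4.62%) lower at an unadjusted p under 0.05. The 2 sets did not overlap for Erbb2 after it, at 4.42 to 5.56 against 3.07 to 4.30, although X154T then also read 4.30. Because the sets were cut on Erbb2 with X154T left out, this describes them and does not test them.

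**Figure D2:**
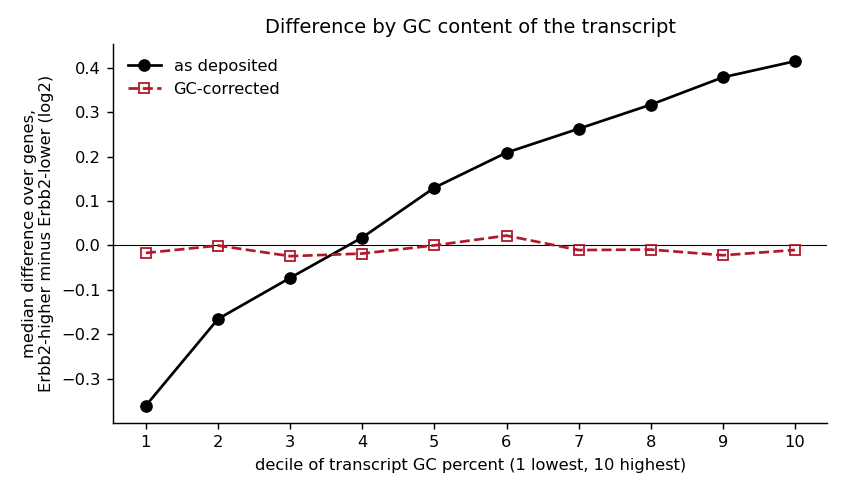
Median difference between the Erbb2-higher and Erbb2-lower sets (log2) in deciles of genes ordered by transcript GC percent, with values as deposited (black) and after GC correction (red). The deposited medians climb from -0.36 to 0.41 across the deciles, and the corrected medians lie near 0.

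The genes that flank Erbb2 on chromosome 11 differed between the sets in the same direction as Erbb2. Of the 40 genes in the list of neighbours, 34 were in the table and 33 were tested; their median difference was 0.82, 30 of 33 were positive, and 23 of 33 were higher at an unadjusted p under 0.05, beside 9.44% of all genes. None passed the adjusted threshold and none was lower at an unadjusted p under 0.05. After GC correction the median was 0.60 with 17 of 33 higher beside 4.31% of all genes, and 28 of 33 lay above the deposited median of their own GC decile. Among the 12 tumors of high Fos alone the median was 0.68, and with both restrictions 0.58.

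Downstream of Erbb2, beyond Mien1, lies Grb7 (98446394 to 98455373), which encodes an adaptor that binds activated ErbB2. Grb7 ran from 3.83 over a median of 4.86 to 5.51 in the higher set. In the lower set it ran from 2.39 over 3.71 to 4.55. In 8 of 10 tumors of the higher set it exceeded every tumor of the lower set, and the exceptions were X1418T at 3.83 and X437T at 4.42, with X149T1 the highest of the lower set. The difference was 1.16 (SE 0.26, unadjusted p = 0.000264, limma adjusted p = 0.186), and 0.80 after GC correction.

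Upstream, Stard3 ran from 3.91 over 5.03 to 5.51 in the higher and from 3.08 over 3.48 to 4.81 in the lower set, a difference of 1.19 (SE 0.29, limma adjusted p = 0.206). The sets overlapped: 6 of 10 tumors of the higher set lay above all of the lower set, where X4351T was highest. Pgap3, which acts in remodelling of glycosylphosphatidylinositol anchors, lies between Stard3 and Erbb2 and had medians of 3.37 and 2.04. Mien1, a membrane-anchored protein gene whose annotated span overlaps that of Erbb2 on the opposite strand, had a difference of 0.61 (SE 0.28). The shared stretch is short, from 98437708 to 98437716. It is not stated whether the libraries kept strand, so reads of Mien1 and Erbb2 may not have been told apart within that stretch only. Msl1 and Casc3 overlap each other on the same strand, from 98804905 to 98807859.

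Farther away, Rara, the retinoic acid receptor alpha gene, had the second smallest unadjusted p of all tested genes. It ran from 3.88 over 4.75 to 5.61 in the higher set and from 2.68 over 3.32 to 4.53 in the lower set, a difference of 1.32 (SE 0.26, unadjusted p = 6.06e-05, limma adjusted p = 0.186). Of the higher set, 8 of 10 tumors lay above the highest of the lower set, X149T1. Msl1, a scaffold of the MSL histone acetyltransferase complex, had medians of 4.67 and 3.74 and a difference of 0.97 (SE 0.21). Casc3, a component of the exon junction complex, differed by 0.96 (SE 0.22), and Mllt6, which encodes a PHD finger protein, by 1.14 (SE 0.27). Psmd3, a subunit of the 26S proteasome, had medians of 6.70 and 5.88, and Med24, a subunit of the Mediator complex, of 4.53 and 3.69. All of these genes come from the list of neighbours, which was made by position, so the position they share is not a result.

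Some neighbours had differences near or below 0. Top2a, the DNA topoisomerase of dividing cells, ran from 3.18 to 5.83 in the higher and from 3.28 to 4.99 in the lower set, a difference of 0.10 (SE 0.36). Rpl23, a ribosomal protein gene, differed by -0.16 (SE 0.21). Csf3, the granulocyte colony-stimulating factor gene, was listed at 0 in 3 tumors of the higher and 1 of the lower set and differed by -0.63 (SE 1.23). Plxdc1 was listed at 0 in most tumors of both sets, and Gsdma was too low to be tested. Ppp1r1b, which encodes a phosphatase inhibitor, differed by 1.27 as deposited but by -0.023 after GC correction within the tumors of high Fos.

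**Figure D3:**
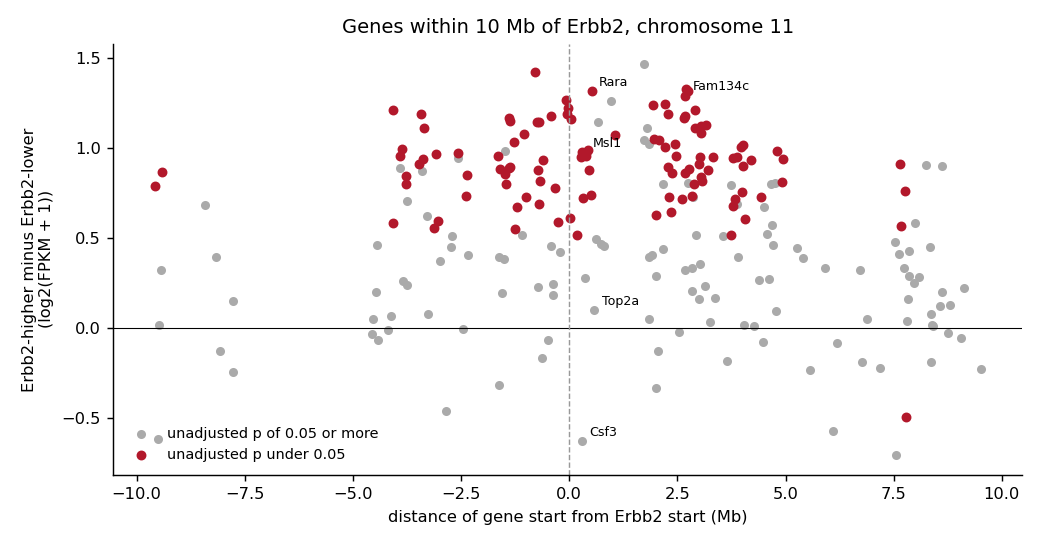
Difference between the Erbb2-higher and Erbb2-lower sets (log2(FPKM + 1)) of tested genes on chromosome 11 against the distance of the gene start from the Erbb2 start, in Mb; each point is a gene and red points have an unadjusted p under 0.05. Within 1 Mb, 26 of 41 genes are red, all of them positive, beside 9.44% of all tested genes that were higher at that p. Top2a (0.10) and Csf3 (-0.63) lie low.

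The difference extended beyond the immediate neighbours. Within 1 Mb of Erbb2 on either side the median difference was 0.78 over 41 genes, and from 1 to 3 Mb it was 0.85 over 74 genes. It was 0.45 over 121 genes from 3 to 10 Mb, 0.34 over 423 genes from 10 to 30 Mb and 0.12 over the 326 genes farther away. After GC correction the same bands had medians of 0.58, 0.58, 0.26, 0.13 and 0.04, in the order of distance. At an unadjusted p under 0.05, 46.3% of genes within 1 Mb and 45.9% of those from 1 to 3 Mb were higher after correction, against 17 of the 121 genes from 3 to 10 Mb.

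Of 206 windows of 10 Mb with at least 20 tested genes, the window of chromosome 11 from 90 to 100 Mb had the highest GC-corrected median, 0.50. The next were chromosome 13 from 10 to 20 Mb, with 0.371 over 27 genes, and chromosome 4 from 40 to 50 Mb, with 0.366 over 94 genes. Over whole chromosomes the deposited median was highest on chromosome 11 at 0.33 and chromosome 4 at 0.32, and lowest on chromosome X at -0.27 and chromosome 14 at -0.17. After GC correction these were 0.14, 0.16, -0.22 and -0.23, and chromosome 11 then came behind chromosomes 4 and 13.

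**Figure D4:**
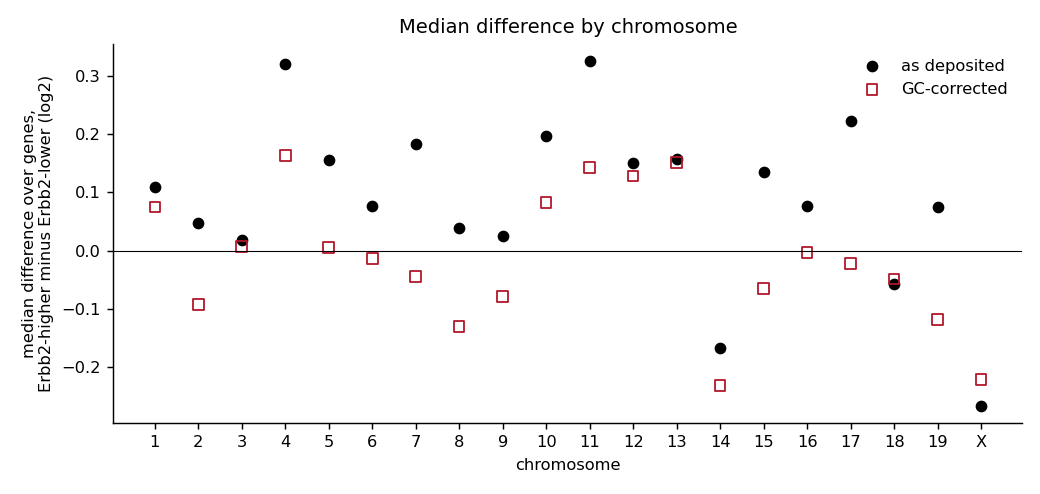
Median difference between the Erbb2-higher and Erbb2-lower sets (log2) over the tested genes of each chromosome, with values as deposited (black circles) and after GC correction (red squares). Chromosomes 11 (0.33) and 4 (0.32) are the highest as deposited, and chromosome X (-0.27) the lowest.

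In single tumors the neighbours followed Erbb2 with exceptions. The median deviation of the 33 neighbours from their mean over the epithelial tumors ran from -0.05 in X1418T to 0.93 in X493T1 in the higher set, and from -0.90 in X1463T2 to 0.24 in X149T1 in the lower set. X149T1 was the only tumor of the lower set with a value above 0, and X1418T and X1463T1 the only tumors of the higher set below it. After GC correction X1310T2 was also above 0, at 0.16, and in the higher set X493T2 alone lay below 0, at -0.13.

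Pairs sharing a title number gave the same ordering. Between X1463T1 and X1463T2 Erbb2 differed by 2.19, Grb7 by 2.48, and 32 of 33 neighbours were higher in X1463T1, with a median difference of 0.90. Between X149T1 and X149T2 Erbb2 differed by 0.74 and 30 of 33 neighbours were higher in X149T1. Between X493T1 and X493T2 the Erbb2 difference was 1.10 and 26 of 33 neighbours were higher in X493T1. In the remaining pair, X1310T1 and X1310T2, Erbb2 was lower in X1310T1 by 0.58 and 6 of 33 neighbours were higher there. After GC correction the counts for these pairs were 31, 31, 28 and 8 of 33, in the same order. The share of all genes higher in the same tumor is not given, so a general shift between 2 libraries was not separated from the neighbours. These pairs are values of single tumors with no replicate check. In X149T2, 72.7% of the summed FPKM belonged to short non-coding RNA genes, against 5.28% to 47.3% in the other 17 tumors.

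Of the other 3 receptors of the family, 2 were among the deposited genes, Egfr and Erbb3, and their levels overlapped between the sets. Erbb4 was absent from the deposited values. Egfr, the receptor for epidermal growth factor, ran from 0.99 over 2.78 to 4.76 in the higher set and from 1.46 over 2.37 to 3.19 in the lower set, a difference of 0.37 (SE 0.41, limma adjusted p = 0.708) that was 1.12 among the tumors of high Fos. Erbb3, the kinase-impaired neuregulin receptor and the main partner of ErbB2, had medians of 4.42 and 4.09 and a difference of 0.26 (SE 0.29, limma adjusted p = 0.717). Erbb3 levels overlapped in nearly their whole range.

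Of 11 ErbB ligand genes, 9 were in the table and 7 were tested, and none had an unadjusted p under 0.05. Their median difference was -0.79. Hbegf, heparin-binding EGF-like growth factor, ran from 0.97 to 8.32 in the higher and from 4.15 to 7.75 in the lower set and differed by -1.15 (SE 0.82). The neuregulin Nrg1 differed by -0.80 (SE 0.65) and Nrg2 by -0.94 (SE 0.54), and Areg, amphiregulin, by -0.36 (SE 0.98). Among the tumors of high Fos alone the median of the ligands was 0.42, the opposite sign, although Nrg1 at -0.33 and Nrg2 at -1.30 stayed below 0. After GC correction the median was -0.48 and 1 of 7 ligands was lower at an unadjusted p under 0.05, Nrg2 (-1.39, unadjusted p = 0.0121 in limma). The lowest Hbegf level was in X493T2, a tumor of low Fos.

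Among 33 adaptors and effectors of ErbB signaling, 7 were higher at an unadjusted p under 0.05 and none was lower, beside 9.44% and 3.4% of all genes. Their median difference was 0.26. After GC correction 4 of 33 were higher, beside 4.31% of all genes, and the median was 0.15. Stat3, a transcription factor activated by tyrosine phosphorylation, ran from 6.10 over 6.98 to 7.57 in the higher set and from 5.69 over 5.96 to 6.69 in the lower set, a difference of 0.96 (SE 0.22, unadjusted p = 0.000359, limma adjusted p = 0.186). In 8 of 10 tumors of the higher set Stat3 exceeded all of the lower set. Stat5a differed by 1.02 (SE 0.32) and Stat5b by 0.86 (SE 0.27). The 3 STAT genes stand side by side on chromosome 11, from 100780731 to 100939540, within 3 Mb of Erbb2, so they belong to the same chromosomal stretch as well as to the pathway. The annotated ends of Stat5a and Stat3 overlap on opposite strands, so their reads may not have been told apart there. Gab2, a docking protein on chromosome 7, differed by 0.75 (SE 0.31), and 0.55 after GC correction.

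Feedback inhibitors and ERK-responsive genes showed no common direction. Of 20 tested negative regulators 3 were higher at an unadjusted p under 0.05, beside 9.44% of all genes, and none lower, and after GC correction 0 of 20 were higher. The 3 were Cblc, a ubiquitin ligase (0.84, SE 0.29), the phosphatase gene Ptprf (0.77, SE 0.32) and Spred2, an inhibitor of Raf activation (0.74, SE 0.28). Dusp6, the ERK phosphatase induced by ERK itself and named after its values were seen, differed by -0.51 (SE 0.35). Of 9 transcription factors and targets downstream of ERK, 2 were lower, beside 3.4% of all genes, Etv1 (-1.63, SE 0.65, listed at 0 in 4 tumors of the higher and 1 of the lower set) and Ier3. Of 15 tested regulators of Erbb2 transcription 1, Tfap2a, was higher at an unadjusted p under 0.05, a share below the 9.44% of all genes. In sign, 14 of the 15 were positive, beside 59.7% of all genes. Their median difference was 0.36 as deposited and 0.19 after GC correction, where the medians over all genes were 0.12 and -0.0085. Tfap2a, which encodes AP-2 alpha, ran from 3.13 over 4.02 to 5.61 in the higher and from 1.43 over 3.61 to 4.31 in the lower set (0.93, SE 0.37, limma adjusted p = 0.336). Tfap2c, encoding AP-2 gamma and named after its values were seen, differed by 0.29 (SE 0.52).

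The 10 genes with the smallest unadjusted p in the higher direction, none past the adjusted threshold, included 5 on chromosome 11 and 3 on chromosome 4. Among the 12039 tested genes, chromosome 11 holds 985 and chromosome 4 holds 754, short non-coding genes not counted. Rgp1, which encodes a subunit of the guanine nucleotide exchange factor for Rab6, ran from 2.95 over 3.04 to 4.11 in the higher and from 1.66 to 2.70 in the lower set, with no overlap (1.14, SE 0.21, unadjusted p = 2.31e-05, limma adjusted p = 0.186). Only 2 of 12039 genes (0.0166%) were above all lower-set tumors in all higher-set tumors, Rgp1 and Atg2b, an autophagy gene named after its values were seen, and 0 (0%) were below. Ubap2 and Tesk1, close to Rgp1 on chromosome 4, differed by 1.06 (SE 0.23) and 1.37 (SE 0.30). Apart from Rara and Msl1, the chromosome 11 genes were Fam134c, an endoplasmic reticulum protein gene (1.29, SE 0.27), Psme3, a proteasome activator (1.11, SE 0.24), and Polr2a, the largest subunit of RNA polymerase II (0.97, SE 0.21). Plxna1, a semaphorin receptor gene on chromosome 6, differed by 1.30 (SE 0.27), and March9, a membrane-bound ubiquitin ligase gene on chromosome 10, by 1.27 (SE 0.29).

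In the lower direction the 10 genes with the smallest unadjusted p, also not past the threshold, were Hs3st3a1, Casc4, Gm38415, Tmem47, Dynlt3, Cdh19, Tmem184c, Cops2, Eif3m and Sdpr. Hs3st3a1, a heparan sulfate sulfotransferase gene, was listed at 0 in 8 of 10 tumors of the higher set and reached 0.93 there, against a median of 1.93 and a highest level of 2.58 in the lower set, where 1 tumor was listed at 0 (-1.54, SE 0.32, limma adjusted p = 0.186). Without X1310T2 it passed the threshold, at -1.79. It too lies on chromosome 11, at 64435332 to 64522841. Cdh19, a cadherin gene, was listed at 0 in 7 tumors of the higher and 1 of the lower set. Sdpr, which encodes a caveola protein, had medians of 2.71 and 4.54, and Eif3m, a subunit of translation initiation factor 3, of 5.97 and 6.84.

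Trp53, on chromosome 11 at 69580359 to 69591873 and named after its values were seen, ran from 2.64 over 4.71 to 6.54 in the higher and from 1.32 over 2.26 to 3.40 in the lower set (2.22, SE 0.54, limma adjusted p = 0.208). Brca1, also on chromosome 11, ran from 0 to 2.26 and from 0 to 1.56, with 1 and 2 tumors listed at 0. Per the study's methods, the mice behind these tumors carried floxed Brca1 alleles and only some of them a floxed Trp53 allele as well. The Trp53 genotype per tumor was not used here.

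Treating Erbb2 as a continuous level over the 19 epithelial tumors gave calls where the comparison of the sets gave none. At a limma adjusted p under 0.05, 690 genes (5.73%) had a positive and 92 (0.764%) a negative slope, and 18 of the 33 neighbours were among the positive ones. Grb7 had a slope of 0.69 log2 units per log2 unit of Erbb2 (SE 0.10) and Rara of 0.72 (SE 0.12). Other treatments of the same tumors gave fewer calls: after GC correction 0 positive and 0 negative genes passed, with 1 tumor per title number 1 and 0, and without X493T1 263 and 28. The 10 genes whose levels were most like Erbb2 over the 19 tumors, by Pearson's r given as a description, were Rgp1 (0.91), Ppp1r10, Msl1, Ubap2, Mllt6, Dhrs11, Acly, Nol6, Casc3 and Tesk1 (0.87). Of these 5 lie on chromosome 11 and 4 on chromosome 4, which hold 985 and 754 tested genes that are not short non-coding. After GC correction r was 0.80 for Rgp1 and 0.82 for Msl1. The 5 least alike were Csgalnact2 (-0.82), Lamp2, Eif3m, Sh3bgrl and Snrpb2 (-0.79). The 19 points share the GC trend described above.

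Levels of the mammary lineage genes overlapped between the sets. Of 4 luminal keratins and 7 basal keratins 0 had an unadjusted p under 0.05. The median difference was -0.09 for the luminal keratins and 1.02 for the basal keratins, of which 6 of 7 were positive. The basal median was 0.66 after GC correction and 1.72 among the tumors of high Fos. Krt14, a basal keratin, ran from 3.67 to 9.81 in the higher and from 0.84 to 9.19 in the lower set. Beside 9.44% of all genes higher and 3.4% lower at an unadjusted p under 0.05, of 12 hormone-sensing luminal genes 1 was higher, Wnt4 (1.30, SE 0.55), and of 17 luminal progenitor genes 1 was lower, Lcn2 (-0.88, SE 0.42). Of 15 milk and alveolar genes 2 were lower and 1 higher, with a median of -0.81. Wap, the whey acidic protein gene, was listed at 0 in 5 tumors of the higher and 1 of the lower set and had medians of 0.63 and 4.24 (-2.12, SE 0.87). Spp1, the secreted phosphoprotein osteopontin, had medians of 8.75 and 11.62 (-2.22, SE 0.82, limma adjusted p = 0.327). Of 24 adhesion and tight junction genes 5 were higher and 2 lower; Jup, the junction protein plakoglobin, also on chromosome 11, differed by 1.05 (SE 0.33), whereas the claudin gene Cldn6 was listed at 0 in 9 of 10 tumors of the higher and 3 of 8 of the lower set.

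Of 31 tested proliferation genes 3 were lower at an unadjusted p under 0.05, beside 3.4% of all genes, and their median difference was -0.24. Mki67, the proliferation antigen, ran from 0.08 over 3.28 to 5.09 in the higher and from 3.38 over 4.01 to 5.05 in the lower set (-1.12, SE 0.50, limma adjusted p = 0.364). Of 29 immediate-early genes, which stress and growth signals induce within minutes, 6 were lower and the median was -1.02. Their mean level over members had a median of 5.40 and reached 7.33 in the higher set, against 6.53 and 7.12 in the lower set. Tumors at a Fos level under 7 numbered 5 of 10 in the higher set (X606T, X493T1, X493T2, X2265T and X437T) and 1 of 8 in the lower set (X4351T). Among the tumors of high Fos alone, 5 against 7, the immediate-early median was 0.01 and that of proliferation genes -0.79.

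Several lists of other cell types had positive medians, and in bulk tissue fewer cells of a type and less RNA per cell cannot be told apart. Not all lists went the same way: neutrophil genes had a median of -0.39, with 2 of 9 positive. Erythroid genes had a median of 1.67, with 4 of 4 positive and 0 at an unadjusted p under 0.05. Of 16 tested macrophage genes 9 were higher at an unadjusted p under 0.05, beside 9.44% of all genes, with a median difference of 1.41, and all 16 were positive. Their mean level ran from 3.73 over 5.23 to 5.85 in the higher set and from 1.07 over 4.18 to 6.49 in the lower set, so the sets overlapped and both the lowest and the highest tumor belonged to the lower set. Csf1r, the macrophage growth factor receptor, named after its values were seen, ran from 3.58 over 4.75 to 5.78 in the higher set and from 0.18 over 3.39 to 6.96 in the lower set. X370T at 0.18, X147T at 0.28 and X149T2 at 1.44 lay below every tumor of the higher set, whereas X4351T at 6.96 lay above every one, and the other 4 tumors of the lower set were between 3.24 and 4.76. C1qa, a complement component made by macrophages, had medians of 7.84 and 5.77 (2.14, SE 0.79, limma adjusted p = 0.327).

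Of 8 tested MHC class II genes 5 were higher, with a median of 1.57, and Cd74, the invariant chain, had medians of 9.57 and 7.36. Of 14 MHC class I genes 9 were higher, with a median of 0.84, and H2-D1, a classical class I heavy chain, differed by 1.04 (SE 0.31), with the limit that class I heavy chains are near-identical copies whose reads the quantification could split. Of 25 interferon response genes 3 were higher, near the 9.44% of all genes, and of 12 endothelial genes 5, with medians of 0.81 and 0.74. After GC correction, when 4.31% of all genes were higher, 8 of 16 macrophage genes, 2 of 8 class II genes, 6 of 14 class I genes, 4 of 25 interferon response genes and 1 of 12 endothelial genes were higher. Of 5 skeletal muscle genes 4 were higher, with a mean level reaching 5.29 in the higher and 1.45 in the lower set, and of 17 fibroblast genes 1 was higher. Among the tumors of high Fos the medians were 1.47 for macrophage and 1.58 for class II genes, but 0.38 for skeletal muscle genes. None of these genes passed the adjusted threshold, and the part of other cell types in the differences of Erbb2 neighbours was not tested.

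**Figure D5:**
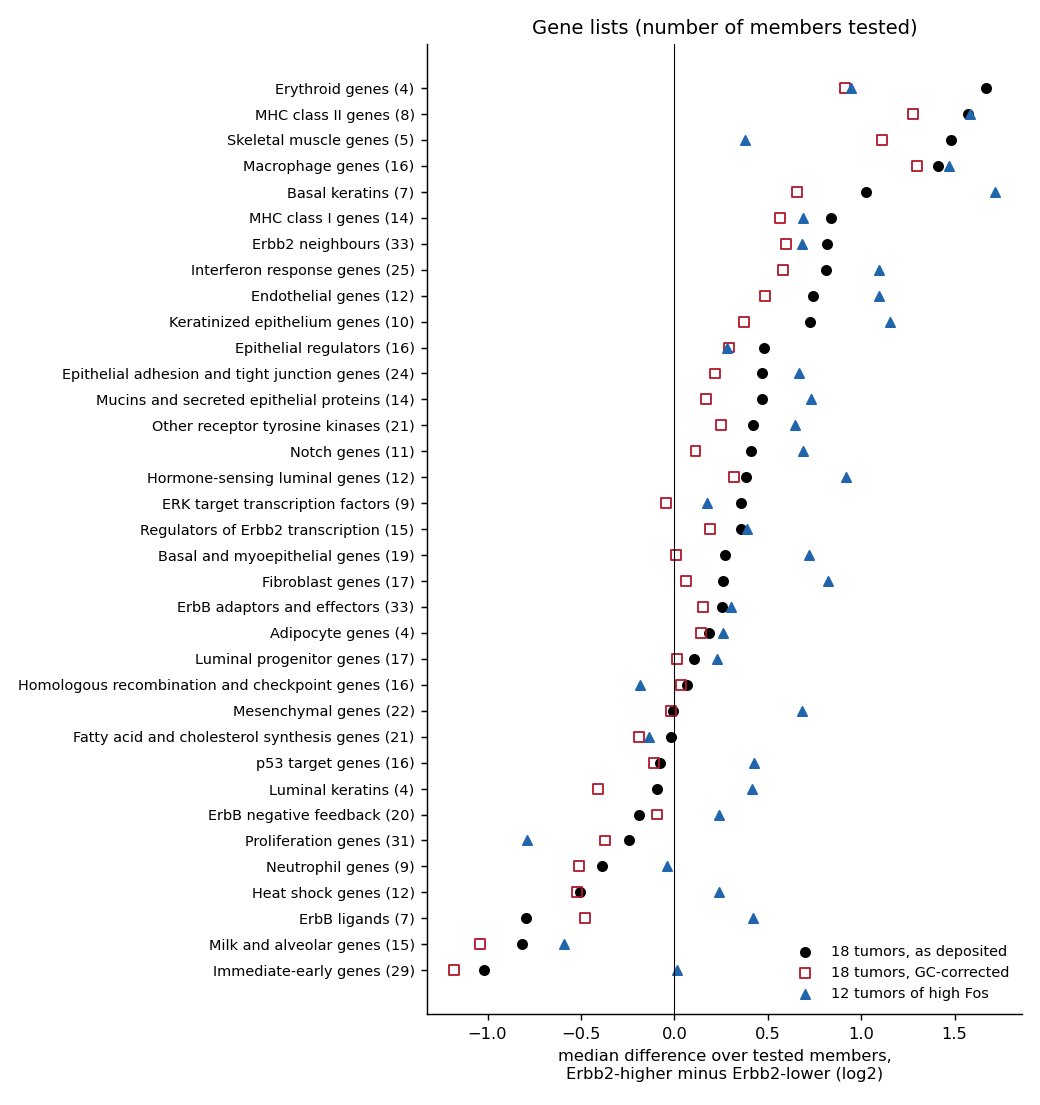
Median difference between the Erbb2-higher and Erbb2-lower sets (log2) over the tested members of each gene list, for all 18 tumors as deposited (circles), after GC correction (squares) and for the 12 tumors of high Fos (triangles). Macrophage genes (1.41) and Erbb2 neighbours (0.82) lie to the right under each treatment, whereas ErbB ligands (-0.79) lie left of 0 in all 18 tumors and right of it in the tumors of high Fos.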

How the data were processed

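Total RNA of 23 frozen mammary tumors was sequenced, 1 library per tumor. The authors deposited 1 table of log2(FPKM + 1) values for 14535 gene symbols; per the labels and the submitters' processing notes, reads were trimmed with Trimmomatic 0.35, aligned to mm10 with TopHat2 2.0.13 and quantified with Cufflinks 2.2.1. A different TopHat release stands in the study's methods. Library depth cannot be recovered from FPKM, no counting interval is given, and an exact 0 may be a failed estimate. The log2 scale with a pseudocount of 1 understates the change of low genes.

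Symbols were placed on the GENCODE mouse annotation release M21 (GRCm38), 99.2% of them. The 2 sets of tumors follow fixed limits on Epcam and Erbb2. Tumors, gene lists and named genes were chosen with earlier results of these data known. The model was fitted to the 12041 genes that averaged at least 1 FPKM in the series, and the 12039 of them other than Erbb2 and Epcam were compared between sets by the moderated test of limma 3.58.1 (R 4.3.3, with a mean-variance trend, two-sided), adjusted by the Benjamini-Hochberg method with a threshold of 0.05. The fit was also tested on simulated data. Lists were described by counts and medians beside those of all tested genes, with no set test. Named genes are Erbb2, Epcam, the ErbB receptors and ligands, the neighbours of Erbb2, the 10 smallest unadjusted p-values in each direction (short non-coding genes left out, same sign within tumors of high Fos), up to 4 members of a list, and the genes most and least like Erbb2 by Pearson's r over 19 tumors; others are said to be named after their values were seen. Tumors with a Fos level of 7 or more are called high Fos. GC content is that of the longest annotated transcript; the correction subtracted from each tumor its trend over 20 bins of GC. Alternatives were another pseudocount, no filter, median centring, quantile normalization, 1 tumor per title number, the title number as a random block, only tumors of high Fos, an immediate-early covariate, leaving out each tumor, a slope on Erbb2 and robust fitting; the GC correction, the alternatives for the slope and those for the neighbours were added after seeing the data.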

Additional observations from a re-analysis of the deposited data

Results flagged for a closer look

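Over 65 genes in both sets, 130 groups of tumors were checked for a tumor far from the rest of its set by Dixon's criterion, which chance meets in about 1 in 20 groups, and 11 groups met it. X493T1 accounted for 4 of them in the Erbb2-higher set: its Erbb2 level of 6.26 was above the next, 5.42, its Epcam level of 6.18 below the next, 8.39, its Tgfa was listed at 0 where the next was 2.96, and its Rgp1 level was 4.11 where the next was 3.42. In the same set Btc, a ligand of Egfr and Erbb4, was at 1.59 in X731T with the next at 0.56, Nrg1 was at 4.27 in X1515T with the next at 2.07, and Gsdma was at 1.88 in X1515T with the next at 0.36. In the Erbb2-lower set X149T1 was highest for Plxdc1, at 0.61 where all others were listed at 0, and for Fbxl20, at 3.22 with the next at 2.70. Gsdma was at 2.94 in X1310T1 with the next at 0.25, and Gm38415 was at 0.093 in X149T2 with the next at 1.54.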

How the results depend on the processing

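The count of genes past the adjusted threshold stayed at 0 in each direction under the alternatives run for the 2 sets, except for the slope on Erbb2 (690 positive, 92 negative) and for leaving out 1 tumor, which gave 0 higher genes each time and between 0 and 1 lower (Mir1938 without X4351T, Hs3st3a1 without X1310T2). Counts at an unadjusted p under 0.05, 1137 higher and 409 lower, became 691 and 897 with median centring, 687 and 766 with quantile normalization, 485 and 247 with 1 tumor per title number, and 2339 and 839 in the slope on Erbb2. The higher count was 730 with the immediate-early score as covariate and 516 with GC correction; the lower count was 767 within the tumors of high Fos and 849 there after GC correction. Leaving out 1 tumor gave 850 to 1685 higher and 285 to 522 lower.

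For the neighbours, the median difference stayed between 0.58 and 0.93 in the alternatives that compared the 2 sets, and between 0.75 and 0.89 when 1 tumor was left out, with 19 to 24 members at an unadjusted p under 0.05. The title number as a random block (estimated correlation 0.38) changed no adjusted call and gave 22 members. For the slope on Erbb2, 782 calls as deposited became 288 (141 positive) with median centring, 291 (263 positive) without X493T1, 130 (112 positive) with the immediate-early covariate, 27 (23 positive) within the tumors of high Fos, 1 (positive) with 1 tumor per title number, and 0 with GC correction. Neighbours among the slope calls, 18 as deposited, numbered 10 with the covariate, 2 within high Fos, 0 with 1 tumor per title number and 0 with GC correction. The GC correction removes the trend with composition by construction; for the other shifts the cause was not tested.

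Of 210 named genes in the fit 43 changed sign under some alternative. Of the 111 with an unadjusted p under 0.05 only Ppp1r1b did, at -0.023 after GC correction within the tumors of high Fos. Genes named for the smallest unadjusted p had been required to keep their sign within tumors of high Fos, itself an alternative counted here. For them that alternative could not show a change of sign. No count over all tested genes is given, so these counts describe the named genes only. Depth limits could not be judged from FPKM, and low genes listed at 0 carry the least information.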

Other observations

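Genes on chromosome 4 near Rgp1 were a second stretch whose levels went with Erbb2, described here because 4 of the 10 genes most like Erbb2 lie on that chromosome. The window from 40 to 50 Mb had a median difference of 0.56 as deposited and 0.37 after GC correction over 94 genes. After correction 31 of the 94 were higher at an unadjusted p under 0.05, beside 4.31% of all genes. Nol6, a nucleolar protein gene in the ribosome pathway, had medians of 4.07 and 2.80, and Ubap2 of 5.30 and 4.13. At the other end, the window of chromosome 8 from 70 to 80 Mb had the lowest GC-corrected median, -0.43 over 99 genes. No explanation was tested for either window.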
